A study of Rattus norvegicus with 4 samples.

Results

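The HIF pathway and the hypoxia targets outside glycolysis and the VEGF family were described in rat oligodendrocyte precursor cells (OPCs) after silencing of the membrane receptor GPR17. The 31 genes were chosen as 8 regulators (HIF subunits, oxygen sensors and Vhl) and 23 targets by their known roles, with earlier results of these data known. Of these, 28 were matched to an array probe by transcript accession, and 25 (7 regulators and 18 targets) were bright enough to be tested, among 11656 tested genes of 16581 with a named probe. OPCs from the cortices of Sprague-Dawley rats at postnatal day 2 were expanded for 3 days with growth factors (basic FGF and PDGF), and the cortices were pooled for the cultures. At the switch to medium with thyroid hormone (T3), which starts differentiation, both groups received 50 nM RNA by lipofection: siGPR17 cells a SMARTpool of siRNAs against Gpr17, and siNEG cells a non-targeting pool. Both were lysed 48 h later, on day 2 of maturation. Each group has 2 arrays, and nothing states that the samples came from separate cultures, so p-values measure only the spread between these samples, which may be technical.

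Cells sense oxygen largely through the hypoxia-inducible factors, HIFs. The alpha subunits Hif1a and Epas1 are made continuously and, when oxygen is ample, are hydroxylated by the Egln prolyl hydroxylases, bound by the Vhl ubiquitin ligase and degraded. Hif1an hydroxylates an asparagine in the same subunits and thereby blocks their binding to coactivators. When oxygen is short, alpha subunits persist, pair with Arnt and bind the DNA core ACGTG or GCGTG near their target genes. These enzymes need iron and 2-oxoglutarate besides oxygen, so the pathway also responds to iron and to metabolism. In the oligodendrocyte lineage, HIF activity is known as a brake on precursor maturation. Arrays measure RNA, and the step at which HIF alpha subunits are mainly controlled is the stability of the protein.

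The 5 targets with the largest positive differences are shown here by their promoters, because the cores that HIFs bind can be seen in them. Each sequence is the 250 bases before the gene start in RefSeq (build GRCr8), written 5′ to 3′ along the strand of the gene, with every ACGTG or GCGTG core of either strand in capitals (CACGT and CACGC are the cores of the other strand).
P4ha2, GRCr8 chr10:38743644-38743893, plus strand: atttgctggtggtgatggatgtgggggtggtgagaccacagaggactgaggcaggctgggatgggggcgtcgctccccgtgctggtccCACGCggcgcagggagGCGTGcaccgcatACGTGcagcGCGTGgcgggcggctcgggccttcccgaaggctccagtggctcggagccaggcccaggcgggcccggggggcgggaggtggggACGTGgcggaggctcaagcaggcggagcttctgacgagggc
Plod2, GRCr8 chr8:101964068-101964317, plus strand: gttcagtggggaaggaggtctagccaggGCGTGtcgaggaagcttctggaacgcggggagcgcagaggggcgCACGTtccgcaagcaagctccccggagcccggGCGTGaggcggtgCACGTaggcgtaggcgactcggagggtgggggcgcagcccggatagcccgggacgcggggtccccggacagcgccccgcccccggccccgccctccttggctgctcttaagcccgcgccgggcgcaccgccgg
P4ha1, GRCr8 chr20:27844796-27845045, plus strand: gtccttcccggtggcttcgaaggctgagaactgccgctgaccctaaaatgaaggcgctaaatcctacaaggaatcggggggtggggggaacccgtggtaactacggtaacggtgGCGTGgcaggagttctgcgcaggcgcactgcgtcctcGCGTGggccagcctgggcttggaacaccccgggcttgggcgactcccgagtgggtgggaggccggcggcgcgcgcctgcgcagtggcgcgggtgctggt
Bnip3, GRCr8 chr1:203154963-203155212, minus strand: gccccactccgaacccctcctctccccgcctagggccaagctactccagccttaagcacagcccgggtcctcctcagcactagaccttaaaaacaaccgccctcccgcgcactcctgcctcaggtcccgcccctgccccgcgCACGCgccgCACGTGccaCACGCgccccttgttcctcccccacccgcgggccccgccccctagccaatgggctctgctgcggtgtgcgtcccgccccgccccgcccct
Bhlhe40, GRCr8 chr4:143174200-143174449, plus strand: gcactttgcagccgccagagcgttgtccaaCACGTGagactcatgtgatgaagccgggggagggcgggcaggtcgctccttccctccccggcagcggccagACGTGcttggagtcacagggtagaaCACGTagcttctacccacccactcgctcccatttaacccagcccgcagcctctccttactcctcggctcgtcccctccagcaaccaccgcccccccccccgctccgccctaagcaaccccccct
The Bhlhe40 and Bnip3 promoters each held 1 palindrome CACGTG, which is also the E-box of other transcription factors and counts as a core on both strands. P4ha2 had 2 ACGTG and 3 GCGTG cores, Plod2 had 2 of each, and P4ha1 had 2 GCGTG cores and no ACGTG core.

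The silencing was checked first. The probe of Gpr17 gave normalized signals of 1107 and 1113 on the siNEG arrays and of 652.3 and 639.4 on the siGPR17 arrays, a log2 change of -0.78 ± 0.085 (SE, n = 2 and 2). In RNA from whole cultures, fewer cells of a type and less RNA per cell cannot be told apart. All signals here are intensities scaled to the 75th percentile of each array (564.9 to 624.1 before scaling). Testing used limma and covered the 28016 probes whose signal exceeded background clearly on 2 or more arrays, with Benjamini-Hochberg adjustment over all of them. A gene is represented by its brightest tested probe. The study set its thresholds at 1.5-fold and an adjusted p of 0.07, and reported a list of differentially expressed genes by them. Here 0 of the 11656 genes passed both (0%) with limma or with the methods' t-test, the comparison that the study's general statistics name. That list was thus not reproduced by these tests. Gpr17 had an adjusted p of 0.209. With an unadjusted p under 0.05, 866 genes were higher (7.43%) and 1018 were lower (8.73%) in siGPR17 OPCs. All 4 arrays shared 1 slide and 1 scan, but the siNEG arrays lay in one column of the slide and the siGPR17 arrays in another, so column and treatment cannot be told apart.

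Among the 18 tested targets, 14 had a higher and 4 a lower mean in siGPR17 OPCs, with a median log2 change of 0.17 (from -0.18 to 1.43) against 0.0099 over all tested genes. An unadjusted p under 0.05 was reached by 8 targets, all of them higher: P4ha2, Plod2, Bhlhe40, Bnip3, P4ha1, Cited2, Jmjd6 and Tfrc. None was lower by that criterion, by which 7.43% of all tested genes were higher and 8.73% were lower. Both siGPR17 arrays were above both siNEG arrays for 12 targets and below them for 1, where 28.1% of all tested genes were higher without overlap and 25.3% were lower. A change of at least 1.5-fold was found for 3 targets, all higher (2.43% of all tested genes were higher by that much and 2.65% lower). None of the 18 passed the thresholds. The 7 tested regulators had a median of -0.16 (from -0.45 to 0.03), with 2 lower at an unadjusted p under 0.05 (Epas1 and Hif1an) and 0 higher. The number of targets with an unadjusted p under 0.05 was 3 in place of 8 without siGPR17 replicate 1, and likewise 3 without siGPR17 replicate 2. For regulators it was 0 in place of 2 without siGPR17 replicate 2, and 1 without any of the other arrays.

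**Figure D1:**
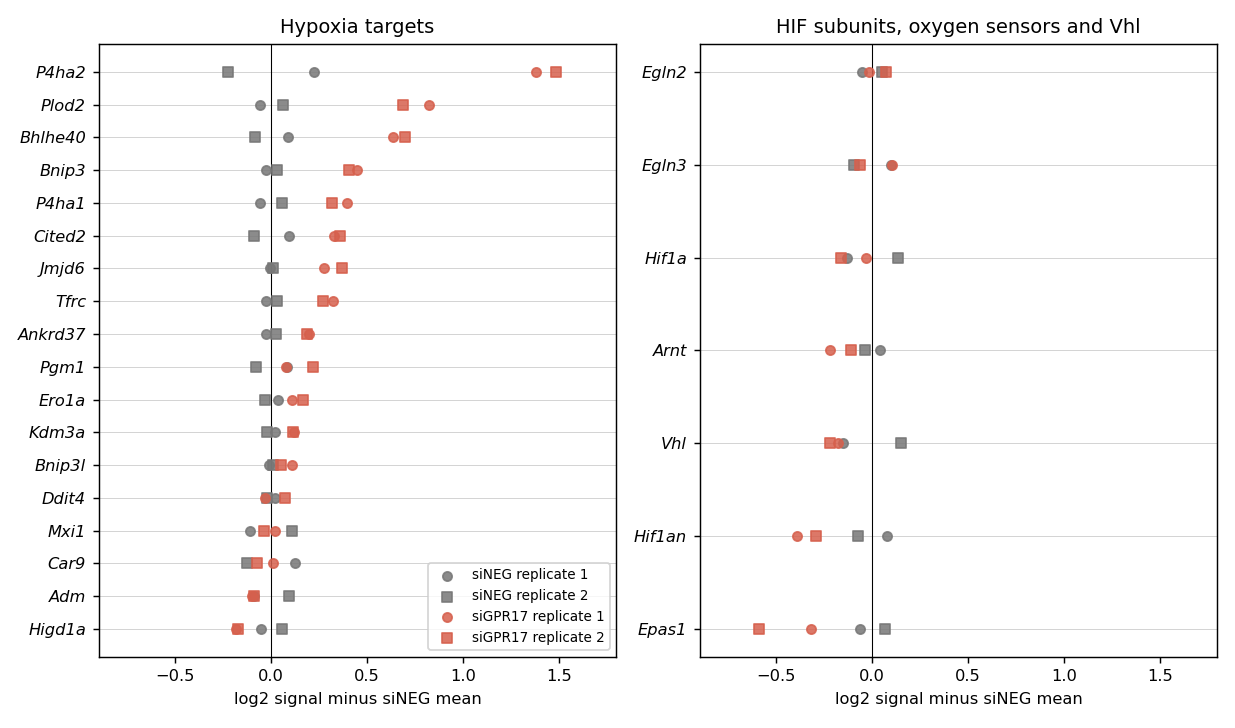
Log2 signal of each tested target (left) and regulator (right) on every array, minus the mean of the siNEG arrays. Grey symbols are siNEG and red symbols siGPR17, circles replicate 1 and squares replicate 2. Both siGPR17 arrays lie to the right of both siNEG arrays for 12 of the 18 targets, and to the left for 4 of the 7 regulators. Of all tested genes, 28.1% were higher without overlap and 25.3% were lower.

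**Figure D2:**
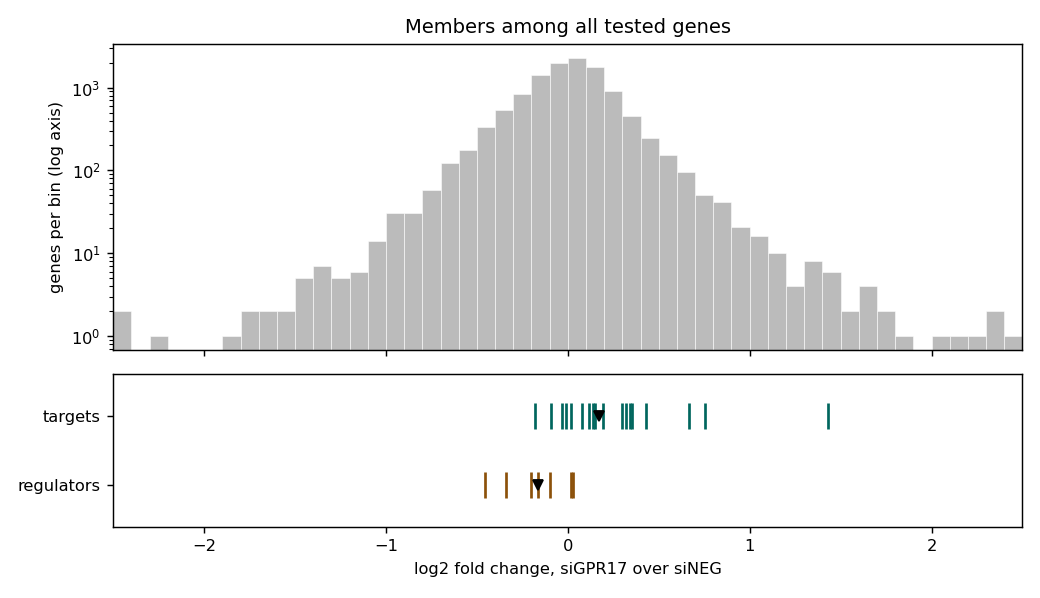
Number of tested genes per interval of 0.1 in log2 fold change (top, log axis, with the genes beyond the plotted range counted in the outermost intervals), and the members below. Each stroke is 1 member and each triangle the median of its row. The targets have their median at 0.17 and the regulators at -0.16.

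Of the HIF subunits, Epas1, the alpha subunit of HIF-2, was the lowest. Its signals were 157.7 and 172.5 in siNEG and 132.2 and 109.6 in siGPR17 OPCs, both of the latter below both of the former. The log2 change was -0.45 ± 0.13 (SE; adjusted p = 0.256). Hif1a, the alpha subunit of HIF-1, gave 11970 and 14388 in siNEG and 12852 and 11732 in siGPR17 OPCs, with 1 siGPR17 array between the siNEG arrays. Its log2 change of -0.10 ± 0.13 (SE) was smaller than the gap of 0.27 between the siNEG replicates, and with scaling on the spike-in probes, which read control RNA added to each sample, it was 0.035. That scaling raised the median of all tested probes by 0.13. Its dimmer probe differed by -0.19 and overlapped too. Arnt, the partner of both, had signals of 77.1 and 73.1 in siNEG and of 64.6 and 69.6 in siGPR17 OPCs. The groups were apart, with a log2 change of -0.16 ± 0.096 (SE; adjusted p = 0.443), but a dimmer Arnt probe overlapped at 0.05.

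Of the oxygen sensors, Hif1an, the asparaginyl hydroxylase, was lower on both siGPR17 arrays (58.7 and 63.0) than on both siNEG arrays (81.2 and 73.1). Its log2 change was -0.34 ± 0.10 (SE; adjusted p = 0.263). Egln2 signals were 1560 and 1679 in siNEG and 1598 and 1703 in siGPR17 OPCs, and signals of Egln3, itself known as a HIF target, were 82.4 and 72.0 against 82.6 and 73.8. For both prolyl hydroxylases the groups overlapped and the log2 change was at most 0.03, within an SE of 0.097 for Egln2 and 0.12 for Egln3. Vhl gave 12190 and 15034 in siNEG and 11958 and 11611 in siGPR17 OPCs. Both siGPR17 arrays were below both siNEG arrays, by -0.20 ± 0.14 on the log2 scale (SE; adjusted p = 0.497), and without siNEG replicate 2 the difference was -0.05. Egln1 had no matched probe and is named only. None of the 7 passed the thresholds, and with spike-in scaling none had an unadjusted p under 0.05.

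The 2 largest positive differences of the module were those of the collagen-modifying enzymes P4ha2 and Plod2. P4ha2, a catalytic subunit of collagen prolyl 4-hydroxylase, which hydroxylates prolines so that the collagen helix is stable, had signals of 110.3 and 80.7 in siNEG and 246.0 and 263.6 in siGPR17 OPCs. Both siGPR17 arrays were far above both siNEG arrays, with a 2.70-fold difference (log2 1.43 ± 0.18, SE; adjusted p = 0.209), which ranked 18 among the 11656 genes ordered from the highest change down. Plod2, the lysyl hydroxylase that acts on collagen ends and sets the type of cross-link, gave 1001 and 1090 in siNEG and 1849 and 1680 in siGPR17 OPCs. This was a 1.69-fold difference without overlap (log2 0.75 ± 0.11, SE; adjusted p = 0.209), and rank 146 in the same order. P4ha1, the other catalytic subunit of the prolyl hydroxylase, gave 2877 and 3120 in siNEG and 3940 and 3726 in siGPR17 OPCs. The groups were apart by a log2 change of 0.35 ± 0.097 (SE; adjusted p = 0.244). Adm, which encodes the vasodilator peptide adrenomedullin, had signals of 154.3 and 175.2 in siNEG and of 153.5 and 154.4 in siGPR17 OPCs, with the groups overlapping (log2 change of -0.09). Lox, which oxidizes collagen lysines for cross-linking, had no matched probe, and Stc2, a secreted glycoprotein, was too dim to test.

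Fibroblasts are known for making collagen and the enzymes that modify it, so fibroblast and mural markers were read beside this group. Of 5 markers, Dcn, Lum and Pdgfrb were not well above background on any array. Col1a1 and Col1a2 differed by 0.43 and 0.21 on the log2 scale, and in both the groups overlapped. The summed signals of these 2 tested markers, mostly Col1a2, were 386.1 and 288.9 in siNEG and 394.1 and 392.2 in siGPR17 OPCs.

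Of the mitochondrial targets, Bnip3, a receptor in the outer membrane that marks mitochondria for mitophagy, was higher with both of its probes. The brighter probe gave 11833 and 12324 in siNEG and 16478 and 16010 in siGPR17 OPCs, without overlap (log2 0.43 ± 0.088, SE; adjusted p = 0.211). The dimmer probe gave 4540 and 4486 against 6310 and 6414, a log2 change of 0.50 with the arrays again apart. Its paralog Bnip3l, a mitophagy receptor as well, differed by 0.08 (17621 and 17881 against 19122 and 18393), which was less than its SE of 0.086 although the arrays were apart. Higd1a, an inner membrane protein of the respiratory chain, was lower on both siGPR17 arrays (1241 and 1253, against 1358 and 1466), by -0.18 (adjusted p = 0.402). Fam162a had no matched probe. The 3 tested genes of this group were thus not uniform in direction.

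Of the targets in transcription and chromatin, 5 of 6 were higher in siGPR17 OPCs, all 5 without overlap, and 3 had an unadjusted p under 0.05. Over all tested genes, 28.1% were higher without overlap and 7.43% were higher at that p. Bhlhe40, a transcriptional repressor of the E-box binding family, gave 58.7 and 52.1 in siNEG and 85.7 and 89.8 in siGPR17 OPCs. This was 1.59-fold (log2 0.67 ± 0.11, SE; adjusted p = 0.209), rank 196 from the highest change down. Cited2, which competes with HIF alpha subunits for their coactivators and so closes a feedback loop, had signals of 133.6 and 117.6 in siNEG and of 157.2 and 160.5 in siGPR17 OPCs. Its log2 change was 0.34 ± 0.11 (SE; adjusted p = 0.265). Jmjd6, an iron and 2-oxoglutarate dependent hydroxylase of nuclear proteins, gave 1633 and 1648 against 1983 and 2120, and thus 0.32 ± 0.090 on the log2 scale (SE; adjusted p = 0.247). Its siNEG replicates lay within 0.014 of each other on the log2 scale. Ankrd37 and the histone demethylase Kdm3a differed by 0.19 and 0.11 with adjusted p-values of 0.353 and 0.532. Mxi1, which antagonizes Myc, was at -0.01 with overlapping arrays, and at 0.12 with spike-in scaling.

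Of the genes of iron, folding, metabolism, pH and stress, Tfrc, the transferrin receptor that takes up iron, had the largest difference. Its signals were 11143 and 11604 in siNEG and 14201 and 13709 in siGPR17 OPCs, without overlap (log2 0.30 ± 0.088, SE; adjusted p = 0.260). The other 4 tested genes had an unadjusted p above 0.05. They were Ero1a (endoplasmic reticulum oxidase, 0.14), Pgm1 (phosphoglucomutase, 0.15), Ddit4 (an inhibitor of mTORC1, 0.02) and the membrane carbonic anhydrase Car9 (-0.03). Of these, only Ero1a had arrays that were apart. The dimmer probe of Ddit4 gave a log2 change of -0.21 without overlap, so that the probes of this gene did not give the same direction. Ndrg1, a stress-responsive gene, had signals of 18.5 and 5.24 in siNEG and 3.82 and 6.83 in siGPR17 OPCs and was well above background on 1 siNEG array only. Car12 and Stc2 were not well above background on any array, so no fold is given for these 3.

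**Figure D3:**
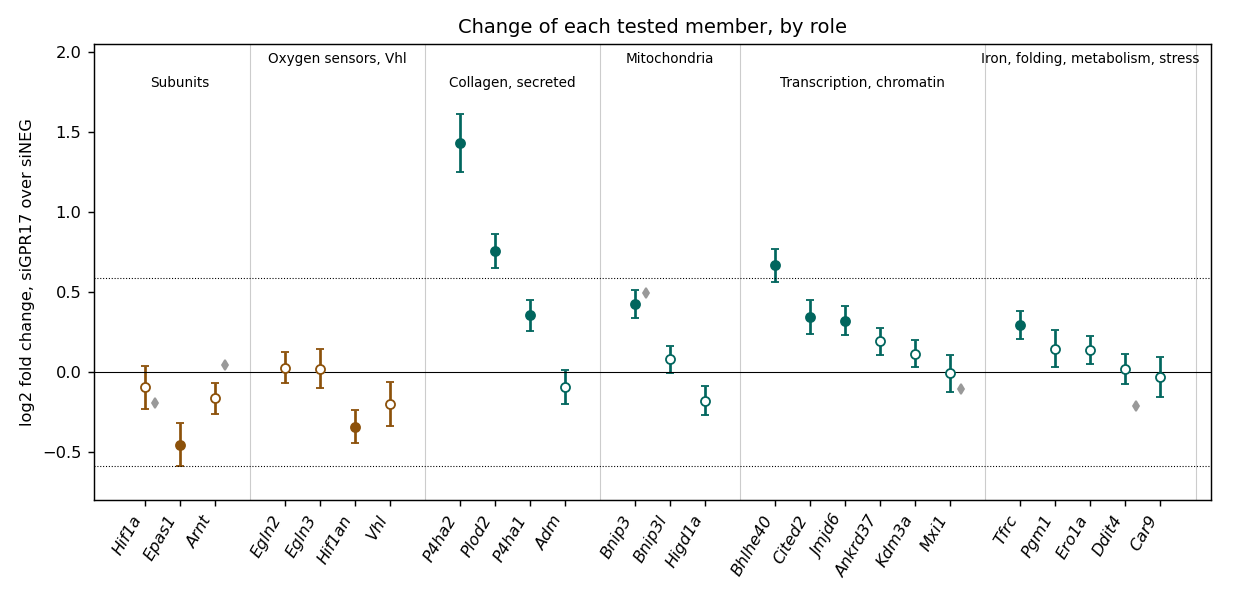
Log2 fold change (siGPR17 over siNEG) of the 25 tested members, grouped by role, with SE from limma. Filled circles have an unadjusted p under 0.05, grey diamonds are dimmer probes of the same gene, and dotted lines mark a change of 1.5-fold. P4ha2, Plod2 and Bhlhe40 lie above the upper line, and Epas1 and Hif1an are the filled circles below 0.

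The pathway outside these members was read from lists of the same kind, to be set against the 7.43% of all tested genes that were higher and the 8.73% that were lower at an unadjusted p under 0.05. Of 21 glycolytic HIF targets, all tested, 17 were higher and 4 lower, with a median log2 change of 0.39 and 14 higher at an unadjusted p under 0.05 (0 lower). Their largest changes were those of Pfkl, which commits sugar to glycolysis (0.79), the lactate exporter Slc16a3 (0.67) and the enolase Eno2 (0.66). All 4 tested of 9 VEGF family and angiogenic genes had a higher mean log2 signal (median 0.57). An unadjusted p under 0.05 was reached by 3: the placental growth factor Pgf (1.66), the VEGF receptor Kdr (0.68) and Vegfa (0.47). The remaining tested gene was dim and overlapped (0.23), and was well above background on only 1 siNEG array. Partners of Vhl and HIF coactivators had a median of 0.04 over 10 tested genes, 1 of which was higher at an unadjusted p under 0.05 (Ube2m, which conjugates Nedd8, 0.32), a share near that of all genes. Their other largest changes were those of the ubiquitin ligases Siah2 (0.45) and Siah1 (-0.19). Among 18 other tested hypoxia-responsive genes the median was 0.07, with 3 higher and 1 lower at an unadjusted p under 0.05. The largest changes there were those of the adenylate kinase Ak4 (0.58), the heme oxygenase Hmox1 (0.55) and the pseudokinase Trib3 (0.39, adjusted p = 0.390). The remaining ones that counted, Ppfia4 (0.30) and Klhl24 (-0.27), were named after their values had been seen. No gene of these lists passed the thresholds.

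The labelled cell type was checked by 7 OPC markers, all well above background on all 4 arrays. All 7 were lower in siGPR17 OPCs, but Gpr17 among them is the silenced gene, so its decrease says nothing about cell type. Besides Gpr17, only Cspg4 (-0.48) had an unadjusted p under 0.05, where 8.73% of all tested genes were lower at that p. For Olig1 (-0.10) and Sox10 (-0.02) the groups overlapped. The summed signals of the 7 were 212243 and 252368 in siNEG and 205734 and 207917 in siGPR17 OPCs. Of 5 endothelial markers, Pecam1 and Cldn5 were not well above background on any array, while Cdh5, Tek and Kdr were so on all 4. These 3 were higher, 2 of them at an unadjusted p under 0.05 (Kdr and Tek), where 7.43% of all tested genes were. Kdr was also counted among the angiogenic genes above. The summed signals of the 3, mostly Kdr, were 305.5 and 336.3 in siNEG and 478.7 and 487.1 in siGPR17 OPCs. All 5 tested of 6 microglial markers had a lower mean log2 signal (2 at an unadjusted p under 0.05), but for Cx3cr1, Itgam and Tmem119 the groups overlapped. Their sums, mostly Cx3cr1, were 3204 and 1732 in siNEG and 1833 and 2344 in siGPR17 OPCs. Of 5 astrocyte markers, 3 were lower at an unadjusted p under 0.05 (Aqp4, Gfap and Slc1a3). The others, Aldh1l1 (0.27) and Gja1 (0.33), were higher with overlapping arrays and a p above that. Sums of the 5 were 7488 and 8101 against 5994 and 5896. All 5 neuronal markers had a lower mean log2 signal, 1 of them at an unadjusted p under 0.05 (Snap25), with sums of 6717 and 8010 against 6567 and 6300. For Tubb3 and Syt1 the groups overlapped. Of the mature oligodendrocyte markers Mbp, Mag, Mobp, Cnp and Mog, Mbp was higher (0.32) and Mog lower (-0.67) on the log2 scale at an unadjusted p under 0.05, while Mag (0.20), Mobp (-0.23) and Cnp (-0.24) had a p above that. The part of these shifts in the values of the hypoxia targets was not tested.

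The promoters of the module were read for the HIF core. A window was at hand for 27 members, 19 targets and 8 regulators. Of the targets, 12 held at least 1 ACGTG core (63.2%), where 17.2% of the windows of protein-coding genes did. The targets are genes known for HIF binding, so this share describes how they were chosen. Of the 8 regulators, 1 held it (12.5%), Hif1a. Among targets with an unadjusted p under 0.05, 6 of 8 held it, and among the other tested targets with a window 5 of 8, a difference of 1 gene. With either core counted, 7 of 8 and 6 of 8 did, against 40.8% of the windows of protein-coding genes. Jmjd6 held neither core in this window, and the only palindromes among the 8 were those of Bhlhe40, Bnip3 and Cited2. A core is a match of letters, and no binding was measured here.

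**Figure D4:**
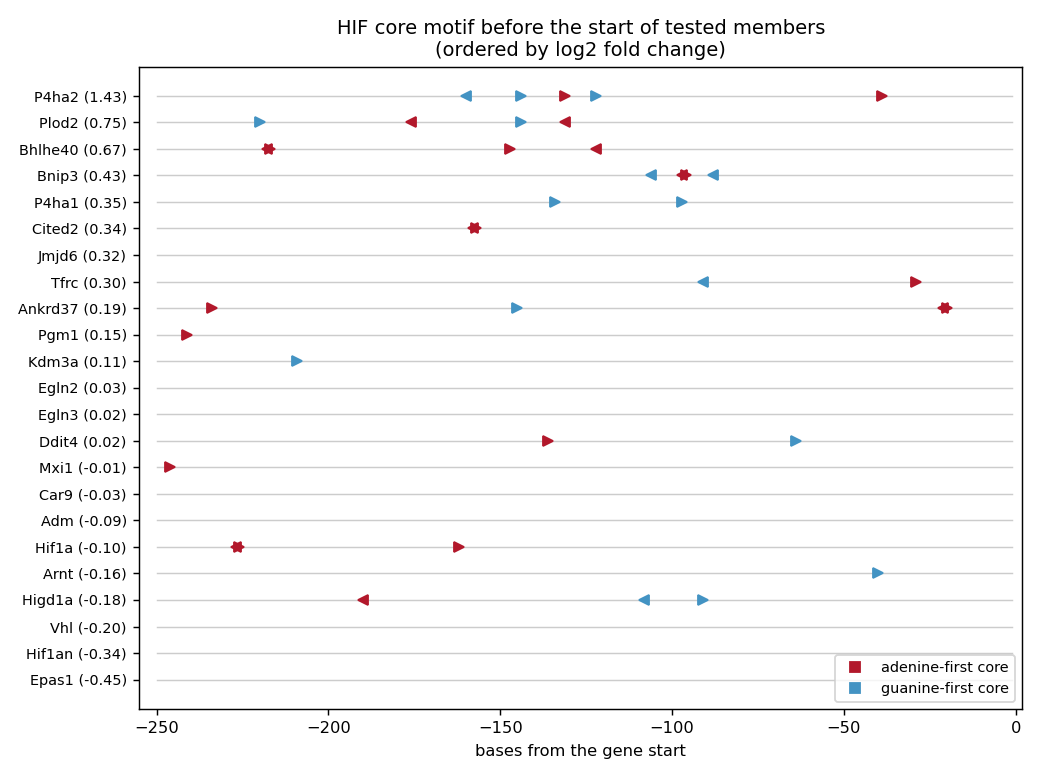
Positions of the HIF core in the 250 bases before the gene start of the tested members with a RefSeq window, ordered by log2 fold change (in brackets). Red marks are ACGTG and blue marks GCGTG, triangles point along (right) or against (left) the strand of the gene, and stars are palindromes, where both directions overlie. The pair of Kdm3a windows is drawn on one line. Cores lie in promoters of genes that were higher, of some near 0 and of some that were lower, such as Higd1a (-0.18) and Arnt (-0.16).

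Some of the largest differences changed in size with another processing of the spots. With normexp, a model-based background correction, on the spot medians in place of the processed intensities (and an offset of 50), P4ha2 was at 1.02 and Bhlhe40 at 0.39, while Plod2 stayed at 0.76. P4ha2 and Plod2 then passed the thresholds (adjusted p of 0.015 and 0.019), as 112 genes did. With the trend and robust options of limma the same 2 members passed, among 184 genes. Bnip3 had an adjusted p of 0.049 and 0.047 under these settings, with a change under 1.5-fold.

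**Figure D5:**
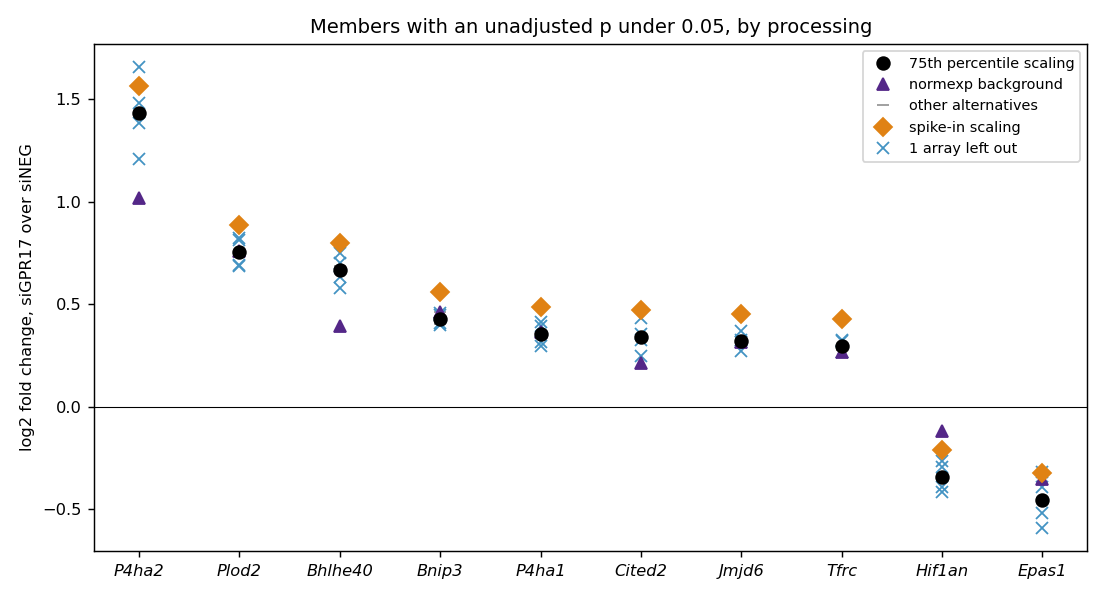
Log2 fold change of the 10 members with an unadjusted p under 0.05 under the main processing (black circles) and each alternative: normexp background correction (triangles), scaling on spike-in probes (diamonds), 1 array left out (crosses) and the others (short lines, mostly behind the circles). All stay on their side of 0, and P4ha2 ranges from 1.02 to 1.66.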

How the data were processed

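RNA of 4 OPC samples (2 siNEG, 2 siGPR17) was labelled with Cy3 and hybridized to 1-color Agilent rat arrays. The authors deposited the spot intensity of each array as Agilent Feature Extraction 10.7.3.1 gave it, corrected for background and without normalization between arrays. The number of arrays limits the precision.

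Here controls and spots flagged as outliers were dropped, the spots of each probe were averaged, and each array's 75th percentile was subtracted from the log2 values. Printed signals are these values times a factor common to all arrays. Of 45565 probes, 28016 well above background on at least 2 arrays were fitted with lmFit and eBayes of limma 3.58.1 (R 4.3.3). Thresholds are those of the study, whose array paragraph names no test. The t-test of its general statistics was run as an alternative (the methods' t-test). Probes were named by accession through RefSeq (GRCr8), and 21109 of 45598 non-control probes had a symbol. One Jmjd6 probe was left out for a flag on 1 array. The brighter Bnip3 probe and the Adm probe each had 1 spot flagged on 2 arrays, and their values there rest on their other spots. No array coordinates are given. The result of 1 cell type marker is not reported here.

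The members and lists were chosen with earlier results of these data known. Regulators with a probe, targets with an unadjusted p under 0.05 or a fold of 1.5, and the 3 largest changes of each further list were named. Same-numbered replicates did not deviate together (correlation -0.07). With 2 arrays per group, an exact permutation test cannot go below a two-sided p of 0.333. Alternatives were normexp (offset 50) on spot and background medians, quantile, median and spike-in scaling, no filter or a filter on all arrays, trend and robust eBayes, the methods' t-test, a block for the replicate number, the mean of all probes of a gene, and each array left out. The code was tested on simulated data.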

Additional observations from a re-analysis of the deposited data

How the results depend on the processing

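The number of targets past the thresholds was 2 with normexp background correction, 2 with the trend and robust options and 0 under the other alternatives, and no regulator passed under any of those run. Of 25 tested members, 18 kept their sign under every alternative. The median log2 change of the targets was 0.17, 0.14 with normexp, 0.30 with spike-in scaling, 0.15 without P4ha2 (chosen after seeing the data) and from 0.16 to 0.20 with 1 array left out. Spike-in scaling raised the median of all tested probes by 0.13, so 0.30 is to be read against that shift. Targets with an unadjusted p under 0.05 were 8, and 3 to 7 with 1 array left out. Regulators with one were 2, against 1 with normexp, 0 with spike-in scaling, 1 with the trend and robust options, 0 with the methods' t-test and 0 to 1 with 1 array left out. The replicate block left 4 targets and 0 regulators. Same-numbered arrays shared a row of the slide, and no label says whether same-numbered samples were paired. Members near 0 turned their sign. With spike-in scaling, Hif1a was at 0.035, Adm at 0.037, Car9 at 0.098 and Mxi1 at 0.12. With quantile normalization Ddit4 was at -0.011 and Mxi1 at 0.0027, and with the mean of all probes Ddit4 was at -0.095. With 1 array left out, Hif1a ranged from -0.23 to 0.037, Egln2 from -0.026 to 0.080, Egln3 from -0.078 to 0.12, Ddit4 from -0.034 to 0.071, Car9 from -0.16 to 0.093 and Mxi1 from -0.12 to 0.10. The causes of these changes were not tested. With an array left out, the lone array of a group is assumed to vary like the others. Signal over background leaves Ndrg1, Car12 and Stc2 without a fold.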

Other observations

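Enzymes that use iron, oxygen and 2-oxoglutarate occur among both regulators and targets of the module, and this grouping was made after the values had been seen, so it carries no test. Of the 8 with a tested probe, P4ha2 (1.43), Plod2 (0.75), P4ha1 (0.35) and Jmjd6 (0.32) were higher in siGPR17 OPCs at an unadjusted p under 0.05 on the log2 scale. Kdm3a (0.11), Egln2 (0.03) and Egln3 (0.02) had an unadjusted p above 0.05, and Hif1an (-0.34) was lower at an unadjusted p under 0.05. At that p, 7.43% of all tested genes were higher and 8.73% were lower.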
